A study of Mus musculus with 65 samples.

Results

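The Hox genes of the 4 mammalian clusters were followed through chromatin replication in E14TG2a, a line of mouse embryonic stem cells. The 38 members were taken by gene symbol, 10 in HoxA on chromosome 6, 10 in HoxB on chromosome 11, 9 in HoxC on chromosome 15 and 9 in HoxD on chromosome 2, and no measured value entered the rule. Each was paired with the nearest transcription start site (TSS) region of the authors within 2500 bp of its RefSeq start, which gave a region to 35 members among the 31995 full-length TSS regions of the series. Hoxa6, Hoxa7 and Hoxa9 lay 2684, 3281 and 2795 bp from the nearest region and were read at their RefSeq start instead, outside the main test.

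Hox genes encode homeodomain transcription factors that give cells their position along the body axis, and their order in a cluster follows their order of expression from head to tail. Genes of the low paralog groups (1 to 4) act in the hindbrain and neck, those of the middle groups in the trunk, and those of groups 9 to 13 in the posterior trunk, limbs and genitalia. In embryonic stem cells the clusters are known as largely silent Polycomb domains, with RNA polymerase II that carries the serine 5 phosphate (S5P) poised at many starts.

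In repli-ATAC-seq, cells receive EdU, a nucleotide analogue that marks newly replicated DNA. The Tn5 transposase cuts accessible chromatin, and marked fragments are captured on streptavidin beads. EdU was given at 20 uM for 10 min, and cells were collected directly (nascent) or after 30 min, 1 h or 2 h in 10 uM thymidine, and untreated cells gave the steady state. In the inhibitor experiment triptolide (which blocks XPB, a TFIIH helicase needed for initiation), DRB (an inhibitor of the elongation kinase CDK9) or the solvent DMSO was given for 2 h before EdU, and 2 h and nascent chromatin were taken. The captured EdU fraction and the unbound supernatant were each sequenced in 3 libraries a group, and a further experiment with 100 added Drosophila S2 cells had 2 libraries each at 2 h and nascent. All groups are the same E14TG2a line, grown with serum and LIF. The labels name neither drug doses nor whether the drugs were present in the chase.

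EdU libraries of the inhibitor experiment held 1.30 M to 5.55 M reads and unbound libraries 2.35 M to 14.4 M. A Hox window of 1 kb therefore rested on few reads. The median over the 18 EdU libraries ran from 0 reads at Hoxb4 to 12 at the best covered member, and 21 of 38 members had no read in at least 1 EdU library. A window without a read in the nascent DMSO replicate 1 library allows up to 1.73 RPM (the unit of the table, reads scaled to library size), and intervals of this kind cover counting error only. Of the embryonic stem cell markers checked, 9 of 10 had a start peak in the nascent list and 9 of 10 at steady state. Nothing in the labels tells whether libraries are separate cultures, and p-values cover only the spread among libraries, which may be technical. In this bulk assay fewer labelled cells and less accessible DNA per cell cannot be told apart.

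Levels differed widely within each cluster. Over the 18 EdU libraries HoxC was led by Hoxc13, a gene of hair and nail development, at a mean of 4.22 RPM (lowest 0.453, median 3.15, highest 10.7), and Hoxc12 was lowest at 1.60 RPM (0.529, 1.53 and 3.04). HoxD was led by Hoxd11, a forearm gene, at 2.67 RPM (0, 2.31 and 6.38), and Hoxd4 was lowest at 0.541 RPM (0, 0.413 and 1.44). The digit gene Hoxd13 was level with Hoxd11 at 2.67 RPM. In HoxA the means ran from 2.30 RPM at Hoxa10 (0, 2.31 and 5.51), which patterns the lumbar spine and uterus, to 0.929 RPM at Hoxa7 (0, 0.897 and 2.16). In HoxB they ran from 2.41 RPM at Hoxb1 (0.576, 2.27 and 5.19), a hindbrain gene, to 0.236 RPM at Hoxb4 (0, 0 and 1.86). Regions lay over 500 bp from the RefSeq start at Hoxa2, Hoxb4, Hoxb5, Hoxb7, Hoxc4, Hoxc9 and Hoxd10, and values there describe that region. The Hoxb4 region lies 1102 bp upstream of its start, on the start of the miRNA gene Mir10a, and 12 of 18 EdU libraries had no read there. The library ranges of the highest and the lowest member overlapped in each of the 4 clusters.

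Start peaks of the Hox genes were fewest in nascent chromatin and most numerous at steady state. A peak within 1 kb stood at 11 of 38 members in the list of nascent chromatin. The 30 min list had 15, the 1 h list 12, the 2 h list 23 and the steady-state list 34, against 36.1%, 42.8%, 45.9%, 50.8% and 56.9% of all TSS regions. The lists held 47341, 72247, 87051, 106983 and 166636 peaks. They were combined over replicates by the authors and hold positions only, so the counts have no test, and a longer list finds more starts. Hoxb7, Hoxc10 and Hoxc13 had a peak in all 5 lists. Peaks did not accumulate steadily, since 16 members were missing from a list after an earlier list had held them. Hoxa10 and Hoxa11, for example, had a nascent peak and none at 1 h. With peaks up to 2500 bp from the start counted, the nascent, 30 min and 1 h lists held 17, 24 and 24 members.

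By position, groups 9 to 13 held start peaks most often in each list but that of 1 h. Of their 16 members 7 had a nascent peak, 12 a peak at 2 h and 16 one at steady state, whereas of the 11 members of groups 1 to 4 none had a nascent peak, 4 had one at 2 h and 9 at steady state. Of the 11 members of the middle groups 4 had a nascent peak, 7 a peak at 2 h and 9 one at steady state. At 1 h they held 5 of 11, beside 6 of 16 in groups 9 to 13 and 1 of 11 in groups 1 to 4. HoxC led the nascent list with 5 of 9 members, before HoxA with 3 of 10, HoxD with 2 of 9 and HoxB with 1 of 10. Hoxb3, Hoxb8 and Hoxc4 had no peak in any list at the start read, and Hoxb6 had one at 1 h only. The Hoxb3 region lies on the start of the noncoding RNA gene Hoxb5os. Hoxc4 was read at the region centred on chr15:103018936, whereas a RefSeq promoter of it lies at chr15:103034145-103034444 and was not read. The counts by position and cluster are over few genes and were not tested.

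S5P peaks lay at 20 of 38 members, against 18.5% of all TSS regions. They stood at 12 of 16 members of groups 9 to 13, 5 of 11 of the middle groups and 3 of 11 of groups 1 to 4. Among the 35 paired members, the 18 with an S5P peak had a median of 2.59 RPM in 2 h DMSO EdU chromatin and 1.46 RPM in nascent DMSO. The 17 without one had a median of 1.38 RPM at 2 h and 1.07 RPM in nascent chromatin. The S5P list comes from total chromatin of 2 samples and from no inhibitor library.

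Peak coverage was also read over the whole clusters, starts included. Over the cluster spans with 5 kb on each side, peaks covered 3.62% of HoxA in the nascent list, 13.8% at 2 h and 28.8% at steady state. In HoxD they covered 1.57%, 14.6% and 28.0%, and in HoxC 5.59%, 12.7% and 22.9%. HoxB, the longest span at 183.94 kb, had the lowest covered share at steady state, at 16.1%, after 2.31% in the nascent list and 8.14% at 2 h. Among the 4 clusters HoxD thus had the lowest share in nascent chromatin and the highest at 2 h. A longer list covers more, and covered shares of other stretches of the genome were not computed. S5P peaks covered 7.68% of HoxA, 3.25% of HoxB, 5.05% of HoxC and 7.20% of HoxD.

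**Figure D1:**
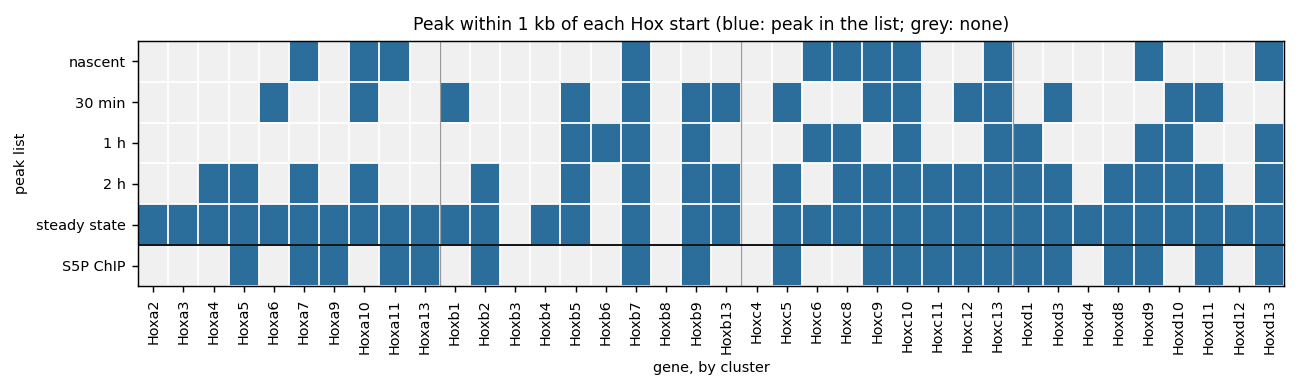
Presence of a peak within 1 kb of the start of each of the 38 Hox genes (columns, by cluster) in the authors' 5 accessibility lists and the S5P list (rows). Blue cells hold a peak; 11 are blue in the nascent row, 23 at 2 h and 34 at steady state, and Hoxb3, Hoxb8 and Hoxc4 are grey throughout.

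The first comparison asks which Hox starts regained accessibility in the 2 h after the fork had passed. In DMSO-treated cells 6 of 35 members rose (31.2% of all 29799 TSS windows tested rose) and none fell (1.64%). The 6 were Hoxc9, Hoxc11 and Hoxc13 in HoxC and Hoxd3, Hoxd8 and Hoxd11 in HoxD, and no member of HoxA or HoxB passed. The median difference of the members on the log2(RPM + 1) scale was 0.27, against 0.34 over all TSS windows. That scale understates changes of low windows, and the median standard error of a member's difference was 0.38.

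Hoxc13, at chr15:102921131-102928814 on the plus strand of mm10, had 9.50, 9.35 and 8.85 RPM in the 2 h DMSO libraries, against 1.73, 2.02 and 3.17 RPM in nascent DMSO. Every 2 h library stood far above every nascent one. The log2 difference was 1.65 ± 0.32 (SE; limma with Benjamini-Hochberg adjustment over all TSS windows, adjusted p = 1.6e-05). Hoxc11, which acts in the posterior trunk and hindlimb, had 2.15, 2.16 and 7.47 RPM at 2 h and 0, 1.01 and 1.06 RPM in nascent chromatin. The groups did not overlap, but 1 library of the 2 h group was far above the others. Its difference was 1.45 ± 0.39 (limma, adjusted p = 0.0016), and without that library, replicate 3, it missed the threshold (limma, adjusted p = 0.0793, where its alternatives ran from 5.67e-06 to that value).

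Hoxd3, a gene of the neck vertebrae at chr2:74711993-74748271 (plus strand), had 3.07, 4.32 and 5.53 RPM at 2 h, against 1.15, 1.01 and 1.06 RPM in nascent chromatin. The groups did not overlap, and the difference was 1.33 ± 0.34 (limma, adjusted p = 0.001). Hoxd11, at chr2:74679558-74687016 (plus strand), had 4.60, 4.32 and 5.81 RPM at 2 h and 0, 3.03 and 2.65 RPM in nascent chromatin. Its difference was 1.26 ± 0.36 (limma, adjusted p = 0.0032), and without nascent replicate 1, the library with no read, it missed the threshold (limma, adjusted p = 0.225, where its alternatives ran from 4.13e-06 to that value). Hoxc9, a gene of the thorax and lumbar region, rose by 1.12 ± 0.36, and Hoxd8, a trunk gene, rose by 0.95 ± 0.39. The Hoxc9 call was lost without 2 h replicate 3 or nascent replicate 1, when centred and at the RefSeq start. That of Hoxd8 (limma, adjusted p = 0.0481) was lost without any 1 of 5 libraries. It was also lost when centred, by limma-voom, with no filter and with a pseudocount of 0.25. Without 2 h replicate 3, 3 members rose.

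All 6 members that rose had a 2 h peak in the separate time series, as did 22 of the 35 paired members, and all 6 had an S5P peak, as did 18 of the 35. The other 29 members had differences between -0.62 at Hoxa4 and 0.81 at Hoxc8 and did not pass. By position, 4 of the 15 paired members of groups 9 to 13 rose, 1 of 9 of groups 5 to 8 and 1 of 11 of groups 1 to 4. When each library was scaled to its windows away from peaks, 13 members rose. That scaling moved the median over all TSS windows by over 0.1, to 0.72, and the median of the members to 0.69. At the RefSeq start, Hoxa6, Hoxa7 and Hoxa9 had differences of -0.10, 0.21 and 0.89, none called (limma, adjusted p of 0.875, 0.727 and 0.0655). With all members read at the RefSeq start 7 rose. Hoxc4 (0.99; limma, adjusted p = 0.0332) and Hoxd10 (1.41; limma, adjusted p = 0.00103) were then called, and Hoxc9 (0.65; limma, adjusted p = 0.165) was not.

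**Figure D2:**
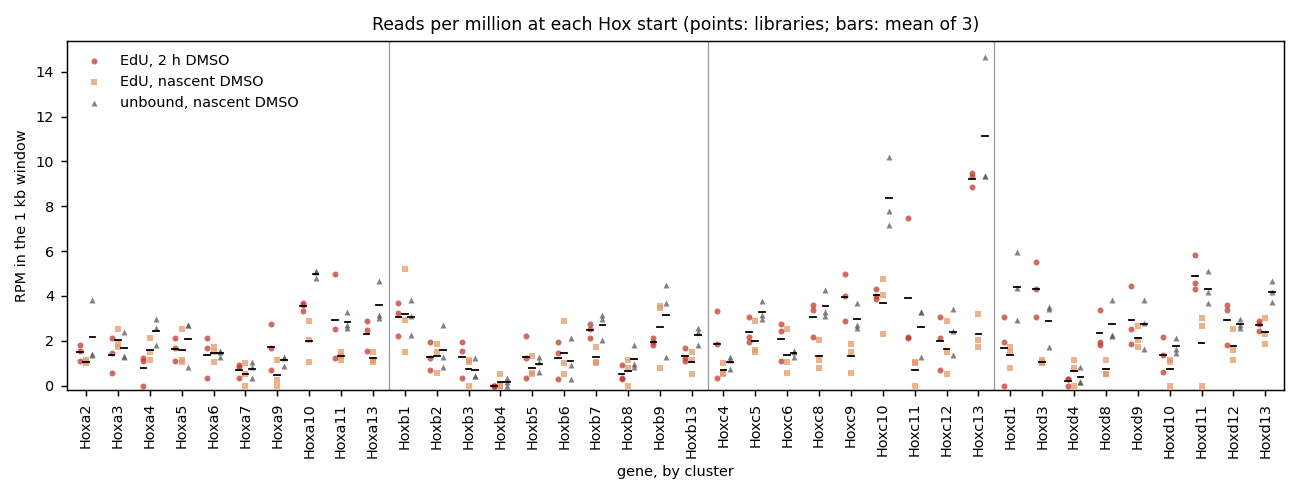
RPM in the 1 kb window at each of the 38 Hox starts (x axis, by cluster) in EdU chromatin at 2 h and nascent and in the unbound fraction of nascent cells, all with DMSO. Points are libraries and bars the mean of 3; the 3 points of Hoxc13 at 2 h lie between 8.85 and 9.50 RPM and those of nascent chromatin between 1.73 and 3.17.

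The upstream sequences of 3 starts are shown because results below turn on them. Hoxd3 had the largest DMSO difference of HoxD at the paired regions, Hoxd11 rose in DMSO and was lower with triptolide, and Hoxa10 rose with DRB and had the largest DMSO difference of the paired HoxA members. Hoxd11 and Hoxa10 were chosen after their values were seen. Each is the 250 bases before the RefSeq start, 5′ to 3′ on the gene's strand (GRCm38.p6), with every CpG dinucleotide in capitals. Hoxd3 is chr2:74711743-74711992 (plus strand), Hoxd11 is chr2:74679308-74679557 (plus strand) and Hoxa10 is chr6:52240855-52241104 (minus strand).
Hoxd3: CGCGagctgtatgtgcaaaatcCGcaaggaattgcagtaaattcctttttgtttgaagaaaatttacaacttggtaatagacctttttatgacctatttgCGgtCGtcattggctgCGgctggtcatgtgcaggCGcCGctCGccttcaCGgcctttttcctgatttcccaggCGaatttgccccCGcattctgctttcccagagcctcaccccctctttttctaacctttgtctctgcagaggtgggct
Hoxd11: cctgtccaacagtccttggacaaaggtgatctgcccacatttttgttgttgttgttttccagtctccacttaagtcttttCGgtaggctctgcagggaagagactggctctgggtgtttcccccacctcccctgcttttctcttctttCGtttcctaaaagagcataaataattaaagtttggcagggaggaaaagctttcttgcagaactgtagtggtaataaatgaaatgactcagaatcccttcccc
Hoxa10: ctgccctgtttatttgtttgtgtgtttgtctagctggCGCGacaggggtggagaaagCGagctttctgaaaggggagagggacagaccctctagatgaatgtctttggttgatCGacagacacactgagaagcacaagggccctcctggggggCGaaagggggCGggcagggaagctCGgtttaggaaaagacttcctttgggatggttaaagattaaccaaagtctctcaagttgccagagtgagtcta
The 3 stretches hold 12, 2 and 7 CpG, in that order, at 49.2%, 44.8% and 51.6% G and C. The table used holds a second promoter of Hoxd11, at chr2:74682073-74682372 with 25 CpG in 300 bases, and of Hoxa10, at chr6:52234890-52235189 with 21 CpG, against 4 and 12 CpG in the 300 bases around the starts shown. For 22 members, 18 of them in HoxA or HoxD, it holds 24 promoters of 300 bases. Their median was 14.5 CpG and 57.7% G and C, against 7 CpG and 52.7% over all 32851 promoters of the table.

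Motifs were searched in the same 300 bases on both strands. CCAAT stood in 15 of the 24 Hox promoters, which is 62.5%, against 37.4% of all promoters. TATAAA stood in 4, or 16.7%, against 13.6%. TGATNNAT, letters of the site that Pbx and Hox proteins bind together, stood in 4 as well, against 8.85% of all promoters. TTTATNG, a form of the site of posterior Hox and Cdx proteins, stood in 2, or 8.33%, against 10.9%. The matches are descriptions of letters, were not tested, and stand for 22 members only.

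With DRB, Hox starts in all 4 clusters rose over the 2 h. In DRB-treated cells 15 of 35 members were higher at 2 h than in nascent chromatin (35.1% of all TSS windows) and none was lower (1.97%). They were 4 in HoxA (Hoxa2, Hoxa3, Hoxa5 and Hoxa10), 2 in HoxB (Hoxb2 and Hoxb6), 6 in HoxC (Hoxc5, Hoxc8, Hoxc9, Hoxc10, Hoxc11 and Hoxc13) and 3 in HoxD (Hoxd3, Hoxd11 and Hoxd12). The median of the members was 0.75, against 0.44 over all TSS windows. Centring every library on its median TSS left 6 higher and made 1, Hoxb4, lower.

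Hoxc13 had 6.12, 6.34 and 10.7 RPM in the 2 h DRB libraries and 0.946, 0.770 and 1.51 RPM in nascent DRB. The groups were far apart, with a difference of 2.05 ± 0.32 (limma, adjusted p = 8.7e-08). Hoxd11 had 3.50, 5.22 and 6.38 RPM at 2 h and 0, 0.770 and 0.907 RPM in nascent chromatin, a difference of 1.98 ± 0.36 (limma, adjusted p = 2.6e-06). Hoxc5, a trunk gene, had 4.81, 3.73 and 6.96 RPM at 2 h and 1.89, 0 and 2.12 RPM in nascent chromatin, a difference of 1.53 ± 0.36 (limma, adjusted p = 0.00023). For each of the 3 genes all 2 h libraries were above all nascent ones.

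Hoxd3 also rose with DRB, with 3.06, 4.85 and 5.80 RPM at 2 h and 0.946, 0.770 and 1.21 RPM in nascent chromatin (1.47 ± 0.34). Hoxb2, a hindbrain gene, had 1.31, 3.36 and 2.03 RPM at 2 h and 0, 0 and 0.605 RPM in nascent chromatin (1.42 ± 0.38). The 2 h DRB replicate 3 library stood apart, being the highest of its group over each whole cluster, and without it 7 members rose. Hoxa3 rose by 1.00 ± 0.37, but its difference was -0.21 in the window nearest its RefSeq start, which lies 269 bp from the region's centre. Its call thus depends on which of these windows is read. The interaction asks whether the 2 h change with DRB differed from that with DMSO, and no member passed in either direction (0.0134% of all TSS windows higher and 0.00671% lower). At an unadjusted p under 0.05 there were 6, and limma-voom on the recovered reads also called none.

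With triptolide few Hox starts rose. At 2 h 2 of 35 members were higher than in nascent chromatin (14.1% of all TSS windows) and none lower (0.389%), with a median of 0.41 against 0.24 over all TSS windows. Hoxa4, a gene of the neck, had 1.15, 3.72 and 2.39 RPM at 2 h and 0.348, 0.453 and 0.900 RPM in nascent triptolide chromatin, a difference of 1.07 ± 0.38 (limma, adjusted p = 0.044). Hoxc6, a gene of the thorax, had 4.03, 2.17 and 2.13 RPM at 2 h and 0.348, 0.453 and 1.44 RPM in nascent chromatin, a difference of 1.13 ± 0.39 (limma, adjusted p = 0.038). Both groups of both genes were apart, yet neither call held without nascent replicate 1 or 2, or without 2 h replicate 2 or 3, and Hoxc6 also missed it without 2 h replicate 1.

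Hoxc13 and Hoxd11, which rose after replication in DMSO, were lower with triptolide at 2 h. Both comparisons use the same 2 h DMSO libraries, so they are not independent. Of 35 members 2 were lower in triptolide than in DMSO at 2 h (28.6% of all TSS windows) and 1 was higher (2.72%). Hoxc13 had 2.02, 3.41 and 3.46 RPM in 2 h triptolide, against 9.50, 9.35 and 8.85 RPM in 2 h DMSO. The libraries did not overlap, and the difference was -1.39 ± 0.32 (limma, adjusted p = 0.00029). Hoxd11 had 1.73, 1.24 and 2.92 RPM in triptolide and 4.60, 4.32 and 5.81 RPM in DMSO, a difference of -1.03 ± 0.36 (limma, adjusted p = 0.02) that missed the threshold under 6 alternatives. Hoxa4 was the member that was higher, with 1.15, 3.72 and 2.39 RPM in triptolide and 1.23, 0 and 1.11 RPM in DMSO (0.96 ± 0.38; limma, adjusted p = 0.045). Its libraries overlapped at the lowest triptolide value, and the call was lost without DMSO replicate 2 or without triptolide replicate 2 or 3, and under 4 other settings.

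The median of the members for triptolide against DMSO at 2 h was -0.07, and over all TSS windows -0.29. By position the medians were 0.37 in groups 1 to 4, 0.00 in groups 5 to 8 and -0.32 in groups 9 to 13. All 15 paired members of groups 9 to 13 had values below 0, of which Hoxc13 and Hoxd11 passed the test. How many of all TSS windows lay below 0 was not counted, and the median of groups 9 to 13 was near that of all windows. Hoxa9, unpaired and read at its RefSeq start, had 1.15, 2.17 and 2.13 RPM with triptolide and 2.76, 0.719 and 1.66 RPM with DMSO. Centring turned the split to 2 higher (Hoxa4 and Hoxb4) and 1 lower, and scaling to windows away from peaks to 1 higher and 6 lower. The interaction of time with triptolide called no member (0.0302% of all TSS windows higher and 0.419% lower). Its values were -1.16 ± 0.46 at Hoxc13, -1.16 ± 0.51 at Hoxd11, -1.42 ± 0.55 at Hoxc11 and 1.69 ± 0.54 at Hoxa4, 4 members were under an unadjusted p of 0.05, and limma-voom called none.

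Nascent chromatin and DRB at 2 h gave no called member. For DRB against DMSO in nascent chromatin none of 35 was higher (0.282% of all TSS windows) or lower (3.37%), 8 were under an unadjusted p of 0.05, and limma-voom called none. The members' median was -0.236 there, against -0.185 over all TSS windows. By cluster, the 7 paired HoxA members had a median of -0.82, and the members of the other clusters medians between -0.16 and 0.01. Hoxa5, a gene of the lung and lower neck, was nearest to the threshold. It had 0, 0 and 0.302 RPM with DRB and 1.15, 2.52 and 1.06 RPM with DMSO (-1.19 ± 0.38; limma, adjusted p = 0.0504). The 3 DRB libraries together held 1 read in that window.

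For triptolide against DMSO in nascent chromatin none was higher (0.45% of all TSS windows) or lower (11.6%), and 2 were under an unadjusted p of 0.05. The members' median was -0.05, against -0.23 over all TSS windows. For DRB against DMSO at 2 h none was higher (0.201%) or lower (0.621%), with 1 member, Hoxc5, under an unadjusted p of 0.05 and a median of 0.07. limma-voom called none in either comparison. Among the members, the smallest difference called in any comparison within the EdU fraction was 0.85, at Hoxd12 with DRB.

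**Figure D3:**
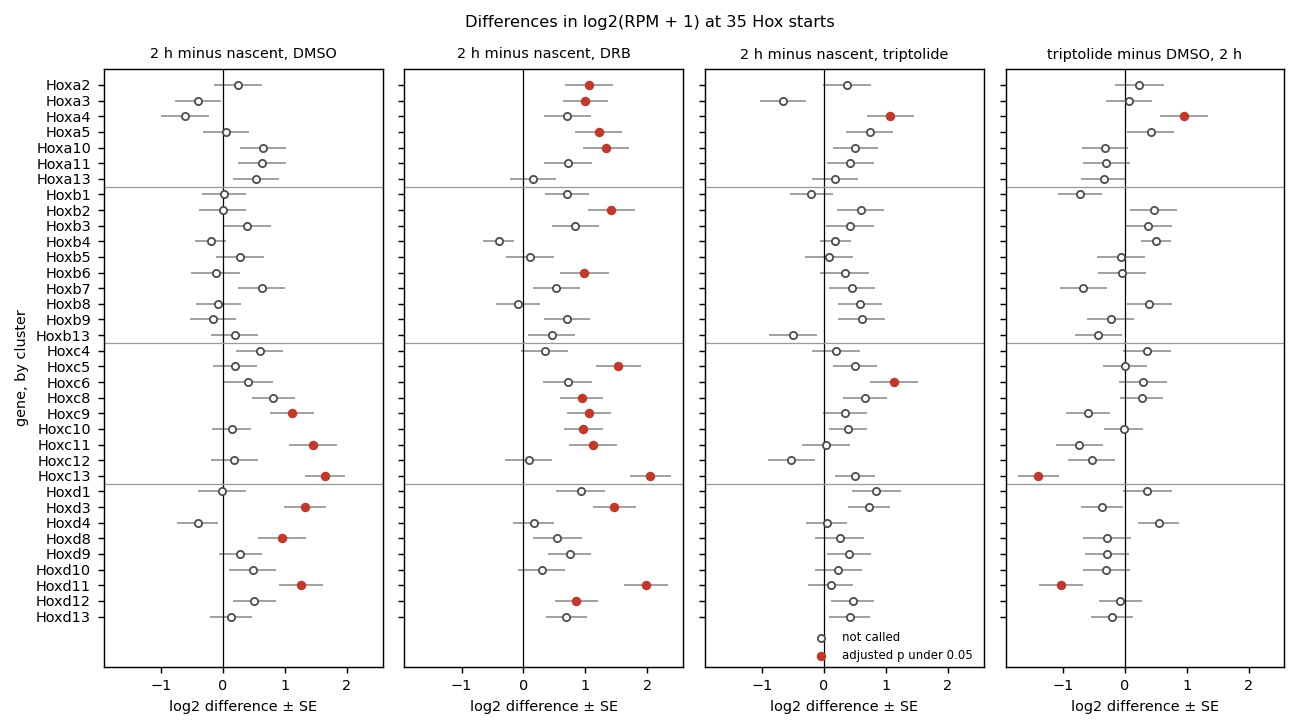
Differences in log2(RPM + 1) with their SE at the 35 paired Hox starts (rows, by cluster) for 2 h minus nascent chromatin with DMSO, DRB and triptolide and for triptolide minus DMSO at 2 h. The first and last panels share the 2 h DMSO libraries. Filled points passed an adjusted p of 0.05; they are 6, 15, 2 and 3, and Hoxc13 and Hoxd11 lie right of 0 in the first 2 panels and left of 0 in the last.

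Over the whole clusters, 2 h chromatin stood above nascent chromatin in DMSO. Each cluster was read in 1 kb windows from 5 kb outside its outermost members, which gave 107, 183, 124 and 106 windows for HoxA, HoxB, HoxC and HoxD. In DMSO the mean RPM per window at 2 h, against nascent chromatin, was 1.48 ± 0.193 against 0.902 ± 0.075 in HoxA, 1.04 ± 0.091 against 0.853 ± 0.097 in HoxB, 1.63 ± 0.27 against 0.964 ± 0.065 in HoxC and 1.32 ± 0.084 against 0.792 ± 0.054 in HoxD (SD, n = 3 each). All 2 h libraries were above all nascent ones in each of the 4 clusters. HoxB had the smallest ratio of the 4, at 1.21, against 1.64 to 1.69 in the others. These cluster means were described and not tested. No other stretches of the genome were read in this way. Non-overlap of libraries, here and below, is therefore not shown to be particular to the Hox clusters. Windows away from peaks had 0.305 to 0.307 RPM in the nascent DMSO libraries and 0.182 to 0.209 RPM in those of 2 h DMSO.

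In nascent chromatin the triptolide libraries were higher than the DMSO libraries over 3 of the clusters. HoxA had 1.37, 1.16 and 1.50 RPM per window with triptolide and 0.975, 0.825 and 0.905 with DMSO. HoxC had 1.50, 1.34 and 1.70 with triptolide and 0.944, 0.912 and 1.04 with DMSO, and HoxD had 1.04, 0.965 and 1.12 with triptolide and 0.734, 0.800 and 0.841 with DMSO. None of these libraries overlapped. In HoxB they did, at 1.02, 0.861 and 1.11 with triptolide and 0.955, 0.761 and 0.843 with DMSO.

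The unbound fraction of the same nascent cells had means of 1.64 ± 0.27 RPM per window with triptolide and 1.65 ± 0.042 with DMSO in HoxA, and 1.84 ± 0.44 with triptolide and 1.64 ± 0.028 with DMSO in HoxC. In HoxD it had 1.54, 1.49 and 1.84 with triptolide and 1.33, 1.52 and 1.37 with DMSO, which overlapped. Relative to windows away from peaks, the nascent triptolide libraries still stood above DMSO without overlap in HoxA, HoxC and HoxD, by ratios of 1.39, 1.46 and 1.22. RPM is a share of a library, and over all TSS windows the median triptolide difference in these libraries was -0.23. Its part in the cluster values was not tested.

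With DRB the nascent libraries overlapped those of DMSO in all 4 clusters in RPM. Relative to windows away from peaks, HoxB was lower with DRB without overlap, at a ratio of 0.771, and the other clusters overlapped. At 2 h DRB gave 1.91 ± 0.60 RPM per window in HoxA, 1.19 ± 0.35 in HoxB, 2.38 ± 1.04 in HoxC and 1.80 ± 0.41 in HoxD, against 1.48 ± 0.19, 1.04 ± 0.091, 1.63 ± 0.27 and 1.32 ± 0.084 with DMSO. All 2 h DRB libraries stood above all nascent DRB libraries in the 4 clusters, at ratios of 1.62 in HoxB to 2.45 in HoxC. With triptolide the 2 h and nascent libraries overlapped in HoxA, HoxB and HoxC and were apart in HoxD, at a ratio of 1.47. Relative to windows away from peaks the 2 h triptolide libraries were higher without overlap in all 4 clusters, at ratios of 1.65 to 2.03. Replicate 3 was the highest 2 h DRB library in each cluster, and in HoxC the 3 libraries held 1.50, 2.12 and 3.52. The same-numbered unbound library was also highest of its group in HoxC, at 2.48 against 1.43 and 1.68.

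**Figure D4:**
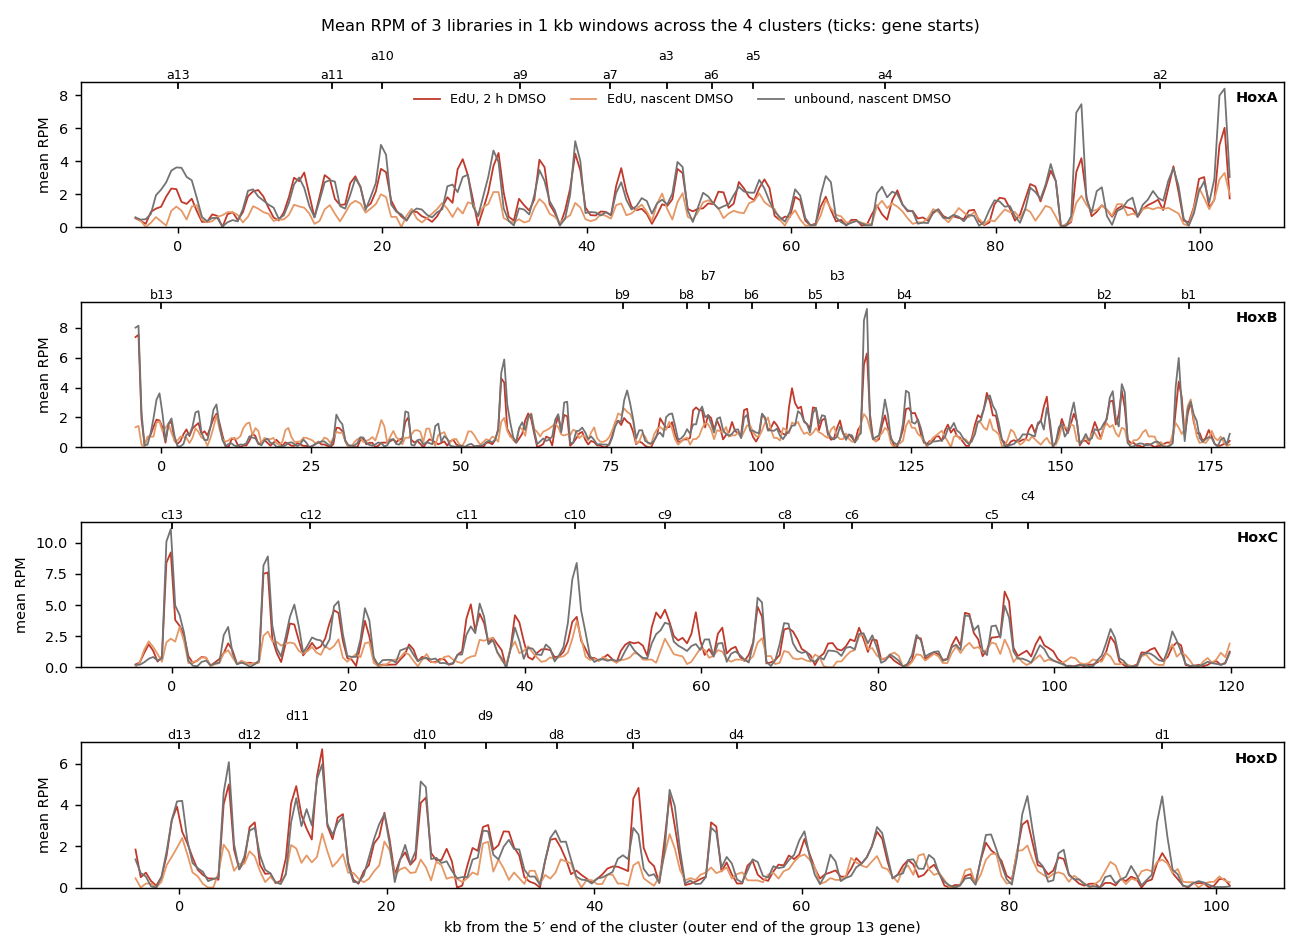
Mean RPM of 3 libraries in 1 kb windows every 500 bp across the 4 clusters, by distance in kb from the outer end of the group 13 gene, for EdU chromatin at 2 h and nascent and for unbound nascent chromatin, all with DMSO. Ticks on top are gene starts; the 2 h line reaches 9.23 at Hoxc13, where the nascent line is at 2.31.

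**Figure D5:**
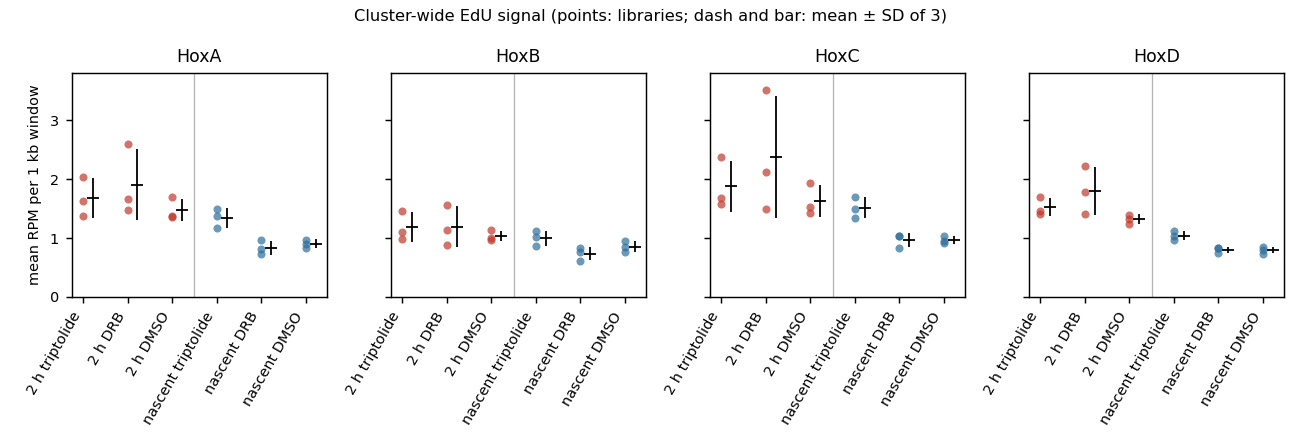
Mean RPM per 1 kb window over each whole cluster in the 18 EdU libraries, by drug at 2 h (red) and in nascent chromatin (blue). Points are libraries and dashes with bars are mean ± SD of 3; nascent triptolide lies above nascent DMSO without overlap in HoxA, HoxC and HoxD.

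The unbound fraction is mostly DNA not replicated in the pulse, and no member passed a test within it. Between 2 h and nascent DMSO none of 35 members was higher (0% of all 30310 TSS windows) or lower (0%), with 3 under an unadjusted p of 0.05, and limma-voom called none. The 4 drug comparisons in unbound chromatin called none of the 35 either. In nascent cells 0.267% of all TSS windows were higher and 0.637% lower with DRB, and 0.709% higher and 1.53% lower with triptolide. At 2 h 0.769% were higher and 0.713% lower with DRB, and 2.26% higher and 12.2% lower with triptolide. Between 1 and 7 members per comparison were under an unadjusted p of 0.05. limma-voom called 1 lower in each of the 2 comparisons at 2 h and none in nascent chromatin.

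Set against the unbound fraction, nascent EdU chromatin with DMSO was lower at 12 of 35 members (43.2% of all 30469 TSS windows) and higher at none (4.37%). They were Hoxa10, Hoxa13, Hoxb7, Hoxc8, Hoxc10, Hoxc11, Hoxc13, Hoxd1, Hoxd3, Hoxd8, Hoxd11 and Hoxd13, of which 10 had an S5P peak, as did 18 of the 35 paired members. Paired members with an S5P peak had a median of 2.93 RPM in unbound nascent DMSO chromatin, and those without one 1.66 RPM. Hoxc13 had 1.73, 2.02 and 3.17 RPM in EdU and 14.7, 9.36 and 9.33 RPM in unbound chromatin (-1.87 ± 0.26; limma, adjusted p = 3.4e-08). Hoxd1 had 1.73, 1.51 and 0.794 RPM in EdU and 4.34, 5.95 and 2.95 RPM in unbound chromatin (-1.19 ± 0.33; limma, adjusted p = 0.0022). Both genes stood lower in every EdU library. EdU and unbound libraries come from the same captures, and the fit did not pair them.

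Hoxd8 had 1.15, 0.505 and 0.529 RPM in EdU and 2.24, 3.83 and 2.21 RPM in unbound chromatin (-1.11 ± 0.33). Hoxd11 had 0, 3.03 and 2.65 RPM in EdU and 4.19, 5.10 and 3.68 RPM in unbound chromatin (-1.11 ± 0.31), and missed the threshold without EdU replicate 1. Centring left 3 lower and made 1, Hoxd4, higher. At 2 h EdU against unbound chromatin with DMSO called none of 35 in either direction (0% and 0% of all TSS windows), with 4 under an unadjusted p of 0.05 and none by limma-voom. The median of the members was -0.54 in nascent chromatin and -0.16 at 2 h.

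In the spike-in experiment, on 5 kb regions and a scale of the authors whose use of the S2 reads is unknown, all 35 members had a positive 2 h minus nascent difference. How many of all regions were positive was not counted, and their median was also positive. The test called 22 of the 35 members higher (30.1% of all 30618 regions) and none lower (1.35%), with a median log2 difference of 1.40 against 0.80 over all regions. By cluster 4 of 7 in HoxA, 5 of 10 in HoxB, 6 of 9 in HoxC and 7 of 9 in HoxD rose. Hoxd11 had 7.04 and 7.45 at 2 h and 4.65 and 5.91 in nascent chromatin, as deposited log2 values (1.97 ± 0.52; limma, adjusted p = 0.0022). Hoxd10, a gene of lumbar motor neurons, had 6.52 and 7.10 at 2 h and 4.29 and 5.39 in nascent chromatin (1.97 ± 0.52). Both 2 h libraries were above both nascent ones at each.

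Hoxd13 had 6.44 and 6.97 at 2 h and 4.44 and 5.04 in nascent chromatin (1.96 ± 0.52), and Hoxc9 had 6.90 and 6.97 at 2 h and 4.51 and 5.54 in nascent chromatin (1.90 ± 0.52). The nascent replicate 1 library was the lower of its pair at all paired members but Hoxb2, Hoxb3 and Hoxd3. With 2 libraries a group, leaving 1 out leaves 1 library in its group. The calls were lost without either 2 h library, whereas more members passed without nascent replicate 2. Of the 6 members that rose with DMSO in the inhibitor experiment, 5 were among the 22 called here, and Hoxc11 had a difference of 1.19 ± 0.52 that missed the threshold (limma, adjusted p = 0.062).

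Genes that work with or upstream of the Hox proteins were read in the same fits. In DMSO, 7 of the 9 TALE cofactors (Pbx, Meis and Pknox proteins, which bind DNA beside Hox proteins) were higher at 2 h than in nascent chromatin, with a median of 1.46, beside the 31.2% of all TSS windows. Pbx4 had a difference of 1.83 ± 0.32. Of 14 upstream regulators 7 rose with a median of 0.80, among them the Cdx factor Cdx2 (0.86 ± 0.33) and the retinoic acid receptor gene Rarb (1.30 ± 0.31). Of 16 noncoding RNA genes in or beside the clusters 2 rose, Hoxb3os (1.13 ± 0.37) and Halr1 (0.86 ± 0.35), with a median of 0.44. Of 6 ParaHox and linked homeobox genes 3 rose, with Pdx1 at 1.80 ± 0.35.

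With triptolide at 2 h, 6 of 9 TALE cofactors and 5 of 14 upstream regulators were lower than in DMSO, beside 28.6% of all TSS windows, with Kmt2b, a trithorax methyltransferase gene, at -2.04 ± 0.33 and Pbx4 at -1.88 ± 0.32. None of the 16 noncoding RNA genes was called lower there. In the unbound fraction 5 of 9 TALE cofactors, 2 of 14 upstream regulators and 6 of 10 stem cell markers were also lower with triptolide at 2 h, beside 12.2% of all TSS windows. With DRB, 8 of the 9 TALE cofactors, 9 of the 14 upstream regulators and 8 of the 16 noncoding RNA genes were higher at 2 h than in nascent chromatin, beside 35.1% of all TSS windows, with Hotairm1, a noncoding transcript of the HoxA cluster, at 1.52 ± 0.32. Among markers, 8 of 10 embryonic stem cell genes rose in DMSO, beside 31.2% of all TSS windows, and 6 of 10 were lower with triptolide at 2 h in EdU chromatin, beside 28.6%. Start peaks at steady state stood at 9 of 10 stem cell markers, 3 of 5 primitive endoderm, 6 of 6 neural and mesoderm and 5 of 5 fibroblast markers. S5P peaks stood at 7 of 10 stem cell markers, 2 of 6 neural and mesoderm markers and no primitive endoderm or fibroblast marker. Of all TSS regions 18.5% had one.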

How the data were processed

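Of the 65 libraries of the series in 24 groups, values come from 36 of the inhibitor experiment and 4 with spike-in, and from peak lists of the time series and of S5P in total chromatin. The S5P libraries of replicated chromatin were not used here. Reads were trimmed with Trim Galore 0.4.2 and aligned with Bowtie2 2.2.6.2 to mm10, per the submitters' processing notes. No peak caller is named by the labels or file headers. The inhibitor table was deposited as log2 values, log2(RPM + 1) in windows of 1000 bp every 500 bp, and the spike-in table as log2 values over 5 kb regions, whose scaling the file headers do not give. Peak lists were deposited by the authors as positions only, 1 for each of the 5 time-series groups and 1 for S5P in total chromatin. The log2 steps gave whole reads for 100% of values (tolerance 0.1 read).

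From the files, the window nearest each TSS region's centre was read, windows with reads in fewer than 3 libraries (2 for spike-in) were dropped, and limma 3.58.1 (limma-trend, R 4.3.3) was fitted with all groups of a fraction together and no block. P-values were adjusted by Benjamini-Hochberg over all windows tested, with a threshold of 0.05. The interaction tests compare 2 h minus nascent between drug and DMSO. The scripts were tested on simulated data. Members, gene lists and tests were chosen with earlier results of these data known. Values in every library are given for the members called, at most 4 in each direction per comparison, and for the highest and lowest member of each cluster; others named were chosen after their values were seen. Other genes come from lists of cofactors, regulators and markers. Same-numbered libraries were checked for shared deviations and were not paired in the main fits. Alternatives were another pseudocount (0.25), no filter, centring, scaling to windows at least 1000 bp from peaks, the mean of 3 windows, limma-voom on recovered reads, only the groups compared, a replicate block, each library left out, and, chosen after the data were seen, the RefSeq-start window. Promoters and gene positions are from RefSeq (GRCm38.p6).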

Additional observations from a re-analysis of the deposited data

How the results depend on the processing

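Of the calls in DMSO over 2 h, Hoxc13 and Hoxd3 passed under all alternatives run, whereas the number of members called depended on scale. It was 13 with the mean of 3 windows and 13 with scaling to windows away from peaks, against 6, and 3 to 7 with 1 library left out. With DRB over 2 h it was 7 when centred (6 higher, 1 lower), 26 with 3 windows and 25 with background scaling, against 15, and 7 to 18 with 1 library left out. With triptolide over 2 h it was 0 when centred, 1 by limma-voom, 4 with 3 windows, 0 with no filter, 0 with a pseudocount of 0.25, 7 with background scaling and 0 at the RefSeq start, against 2, and 0 to 2 with 1 library left out. For triptolide against DMSO at 2 h it was 1 with a pseudocount of 0.25 and 7 with background scaling, against 3, and 2 to 3 with 1 library left out. The triptolide interaction had 1 with background scaling. Nascent DRB against DMSO had 1 with 3 windows, 1 with a pseudocount of 0.25 and 0 to 1 with 1 library left out. Nascent triptolide against DMSO had 4 with 3 windows, 2 at the RefSeq start and 0 to 1 with 1 library left out. Nascent EdU against unbound chromatin had 4 when centred and 25 with background scaling, against 12. Unbound DRB at 2 h had 1 by limma-voom and 1 with only the groups compared. Unbound triptolide at 2 h had 1 by limma-voom, 1 with 3 windows, 1 with only the groups compared and 4 with background scaling. Unbound nascent DRB had 1 with 3 windows and 1 with background scaling. Peaks within 2500 bp stood at 17 nascent, 24 at 30 min and 24 at 1 h. The Hoxa3 difference with DRB was -0.21 at the RefSeq start. The cause of these shifts was not tested. Same-numbered libraries correlated in their deviations by -0.022 to 0.145. No comparison had every pair over 0.1, so the main fits did not pair libraries by number. With the replicate block 6 members rose in DMSO, 15 with DRB and 2 with triptolide, 1 was called for nascent DRB against DMSO (Hoxa5), 1 for unbound triptolide at 2 h (Hoxb9) and 0 in the spike-in experiment, against 22, where leaving out 1 library gave 0 to 34. Few reads per window limit every value.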

Other observations

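Some of the highest windows of the clusters in 2 h DMSO chromatin lay away from the starts measured. In HoxB the highest lay 3.82 kb from the start of Hoxb13, with 7.54 ± 0.39 RPM at 2 h and 1.43 ± 0.60 RPM in nascent chromatin (SD, n = 3 each). In HoxC a window 4.83 kb from the start of Hoxc12 held 7.62 ± 1.41 RPM at 2 h and 2.87 ± 2.04 RPM in nascent chromatin. In HoxD the highest lay 2.44 kb from the start of Hoxd11, with 6.69 ± 1.75 RPM at 2 h and 2.61 ± 1.44 RPM in nascent chromatin. A second RefSeq promoter of Hoxd11, chr2:74682073-74682372, lies in that window. In HoxA the highest lay 6.33 kb from the start of Hoxa2, with 6.02 ± 1.24 RPM at 2 h and 3.28 ± 1.35 RPM in nascent chromatin. The windows were picked for their 2 h level, so the values are a description with no test.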
